A study of Rattus norvegicus with 8 samples.

Results

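The genes described here are 7 rat genes for receptors of myeloid cells and the adaptors through which such receptors signal. They are Fcgr1a, Fcgr2b, Fcer1g, Tyrobp, Lilrc2, Lilrb4 and Clec7a, and all 7 were found by gene name among the 32623 genes of the count files. The family was chosen by a measured value, since it was picked after Lilrc2 stood among the larger increases with BAPN in these same libraries. The difference between BAPN and vehicle in these 7 genes is therefore given as a description, and it supports nothing by itself. Calls of these genes in fits across all genes are printed below, but nothing is read from them.

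RNA was sequenced from the epigastric outflow vein of an arteriovenous fistula (AVF) in 8 Sprague Dawley rats, collected 21 days after the vein was joined to the femoral artery. In 4 rats (3 females and 1 male) the vein had been wrapped at surgery in a nanofiber scaffold loaded with β-aminopropionitrile (BAPN), which inhibits lysyl oxidases, the enzymes that crosslink collagen and elastin fibers. The other 4 rats (2 females and 2 males) received a scaffold without BAPN, here called vehicle, so every animal carried both a fistula and a polymer wrap. Each library came from a single rat, and the wall was sequenced whole, so that fewer cells of a type and less RNA per cell cannot be told apart.

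Fc receptors bind the constant part of antibodies and link them to phagocytes. Activating receptors such as Fcgr1a have no signaling motif of their own and pair with an adaptor, Fcer1g or Tyrobp, whose tail carries an immunoreceptor tyrosine-based activation motif (ITAM). Src family kinases phosphorylate the ITAM, and the kinase Syk then binds to it. Inhibitory receptors such as Fcgr2b and Lilrb4 carry an inhibitory motif (ITIM) instead, which recruits phosphatases that oppose Syk. Macrophages around sutures, polymer fibers and a remodeling vein wall use both kinds.

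Upstream sequence is shown for the genes of the family that RefSeq's promoter table (build GRCr8) lists, namely Lilrc2, Lilrb4 and Clec7a. It allows the start of the gene with the largest difference to be set beside those of the other 2. The stretches lie just before the outermost annotated base of each gene, all on the minus strand and written 5′ to 3′. Capitals mark GAGGAA or its reverse complement TTCCTC, the core letters bound by the myeloid factor PU.1 (Spi1). Lilrc2 is at chr1:74192647-74192834, Lilrb4 at chr1:78853295-78853502 and Clec7a at chr4:164599954-164600077.
Lilrc2: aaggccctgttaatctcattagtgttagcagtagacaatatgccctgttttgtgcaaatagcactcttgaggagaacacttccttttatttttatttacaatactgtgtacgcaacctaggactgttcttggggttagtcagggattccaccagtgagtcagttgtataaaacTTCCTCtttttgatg
Lilrb4: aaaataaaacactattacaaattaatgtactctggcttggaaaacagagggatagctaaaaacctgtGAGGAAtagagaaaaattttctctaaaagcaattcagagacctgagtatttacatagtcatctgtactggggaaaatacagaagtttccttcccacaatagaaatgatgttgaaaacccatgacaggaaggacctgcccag
Clec7a: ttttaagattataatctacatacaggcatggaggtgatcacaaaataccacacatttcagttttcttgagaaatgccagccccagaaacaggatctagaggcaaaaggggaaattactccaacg

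The Lilrc2 and Lilrb4 stretches each held these letters 1 time, and the Clec7a stretch held none. In windows of 300 bases around the annotated start, 27.6% of 33469 rat promoters held them on either strand. The letters TTCNNNGAA, the form of an interferon-γ activated site, were found in 8.87% of the windows and in none of the 3 shown here. A match of letters is not evidence of binding.

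Library size separated the groups. The BAPN libraries held between 45039451 and 52241007 counted reads and the vehicle libraries between 19548203 and 22442050, so that the smallest of the former was 2.01 times the largest of the latter. Anything about the libraries that went with depth cannot be told apart from the treatment. Levels below are CPM, read counts scaled to a common library size after TMM normalization, and group values are means with their SD (4 rats each). Log2 fold changes compare BAPN with vehicle and come from edgeR, with a standard error (SE) from limma-voom. Of 11682 tested genes, edgeR's quasi-likelihood test called 1957 (16.8%) at a Benjamini-Hochberg FDR below 0.05, 876 (7.50%) higher and 1081 (9.25%) lower with BAPN. When the libraries were scaled by total counts alone, the numbers higher and lower were 504 and 1161. With the counts thinned to the vehicle depth, 1912 genes were called, 3 of the 7 and 17 related genes among them, and the log2 fold changes of the 7 ran from 0.67 (Tyrobp) to 2.15 (Lilrc2).

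All 7 genes had a positive log2 fold change, as did 51.6% of all tested genes, and 4 of the 7 (Fcgr2b, Lilrc2, Lilrb4 and Clec7a) were above 1, as were 1.93%. Their median log2 fold change was 1.14, against 0.02 over all tested genes. The libraries of the groups did not overlap for 4 of them (Fcgr2b, Fcer1g, Lilrc2 and Clec7a), and 12.7% of all tested genes were higher without overlap. The edgeR fit across all genes called 2 of the 7, Fcgr1a and Lilrc2, where 7.50% of all tested genes were called higher, and DESeq2 called 6, all higher, where it called 27.4% of all tested genes (12.3% higher and 15.1% lower). Since this contrast picked the genes, nothing is read from these counts.

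**Figure D1:**
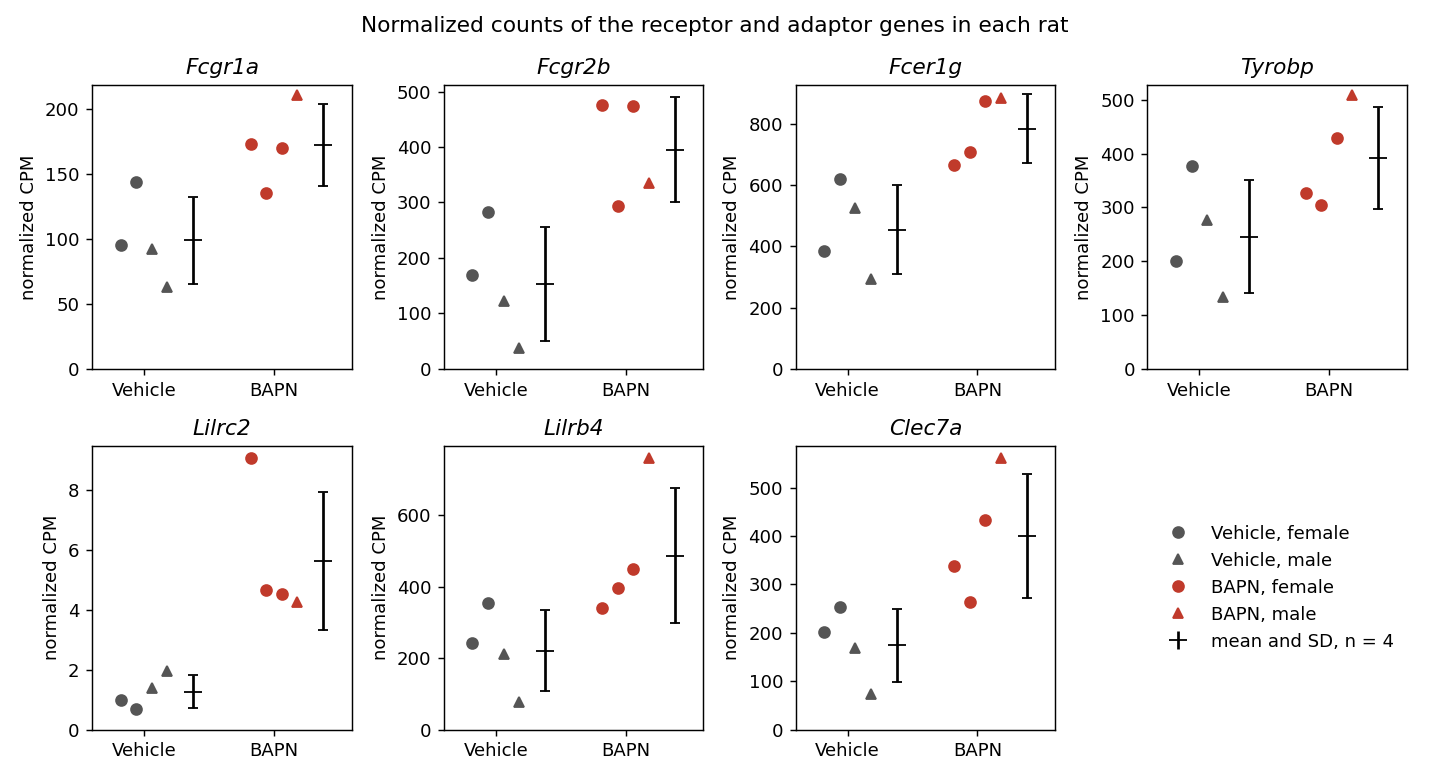
Normalized CPM of the 7 genes in each rat, with a linear axis from 0 in each panel (circles, females; triangles, males; bar, mean and SD of 4 rats). Lilrc2 separates the groups most widely, from at most 1.96 CPM with vehicle to at least 4.26 CPM with BAPN, while Fcgr1a, Tyrobp and Lilrb4 overlap.

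Fcgr1a (ENSRNOG00000021199) encodes the high-affinity receptor for IgG, which needs Fcer1g to reach the surface and signal. It was at 173, 135, 170 and 211 CPM in BAPN 1 to 4 and at 95.3, 144, 92.6 and 63.2 CPM in Vehicle 1 to 4. The groups touched only through Vehicle 2, which lay above BAPN 2. The means were 172 ± 31.4 and 98.8 ± 33.5 CPM (SD, n = 4 per group), and the log2 fold change was 0.80 with a standard error of 0.25.

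Fcgr2b (ENSRNOG00000046452), the inhibitory receptor for IgG, had the widest spread among vehicle rats. It was at 476, 293, 474 and 336 CPM in BAPN 1 to 4 and at 169, 282, 123 and 37.8 CPM in Vehicle 1 to 4. The groups did not overlap, but BAPN 2 was only 1.04 times Vehicle 2. The highest vehicle rat was 7.46 times the lowest, against 1.62 times among BAPN rats. The means were 395 ± 94.3 and 153 ± 102 CPM (SD, n = 4 per group), and the log2 fold change was 1.37 with a standard error of 0.61. Fcgr2b, Fcgr2a and Fcgr3a are closely related, and how reads shared between such genes were counted is not given in the sources used here.

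Both adaptors had smaller differences. Fcer1g (ENSRNOG00000024159), the common γ chain of several Fc receptors, was at 664, 709, 873 and 885 CPM in BAPN 1 to 4 and at 383, 618, 524 and 292 CPM in Vehicle 1 to 4. The lowest BAPN rat was 1.07 times the highest vehicle rat. The means were 783 ± 113 and 454 ± 145 CPM (SD, n = 4 per group), and the log2 fold change was 0.78 with a standard error of 0.26. Tyrobp (ENSRNOG00000020845), known as DAP12, was at 327, 305, 430 and 509 CPM in BAPN 1 to 4 and at 200, 377, 276 and 133 CPM in Vehicle 1 to 4. Vehicle 2 lay above BAPN 1 and BAPN 2. The means were 392 ± 94.7 and 246 ± 105 CPM (SD, n = 4 per group), and the log2 fold change of 0.67 (standard error 0.33) was the smallest of the 7.

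Lilrb4 (ENSRNOG00000027811), an ITIM receptor of the leukocyte immunoglobulin-like receptor family, was at 341, 397, 450 and 760 CPM in BAPN 1 to 4 and at 242, 353, 211 and 78.1 CPM in Vehicle 1 to 4. BAPN 4, the male of its group, was the highest and Vehicle 2 lay above BAPN 1. The means were 487 ± 188 and 221 ± 113 CPM (SD, n = 4 per group), and the log2 fold change was 1.14 with a standard error of 0.48.

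Lilrc2 (ENSRNOG00000058087) belongs to the same family and was by far the most weakly counted of the 7. Its base mean of 109.5 stood just above the minimum of 100, which it reached only through its reads in the BAPN rats. For this reason too, nothing is read from its calls. The gene had 437, 237, 196 and 204 reads in BAPN 1 to 4 and 21, 14, 33 and 41 reads in Vehicle 1 to 4. As CPM these were 9.06, 4.67, 4.52 and 4.26 with BAPN and 0.983, 0.692, 1.39 and 1.96 with vehicle. The lowest BAPN rat was 2.17 times the highest vehicle rat. The means were 5.63 ± 2.30 and 1.26 ± 0.549 CPM (SD, n = 4 per group), and the log2 fold change of 2.16 (standard error 0.50) was number 45 from the top among 11682 genes. Without BAPN 1 it was 1.83. How reads shared with related genes of this family were counted is not given in the sources used here.

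Clec7a (ENSRNOG00000054251) encodes dectin-1, a C-type lectin for fungal β-glucan that signals through Syk and Card9 by a motif in its own tail. It was at 339, 264, 434 and 562 CPM in BAPN 1 to 4 and at 201, 253, 168 and 73.0 CPM in Vehicle 1 to 4. BAPN 2 and Vehicle 2 lay nearest to each other, at a ratio of 1.04. The means were 400 ± 128 and 174 ± 75.8 CPM (SD, n = 4 per group), and the log2 fold change was 1.20 with a standard error of 0.41.

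**Figure D2:**
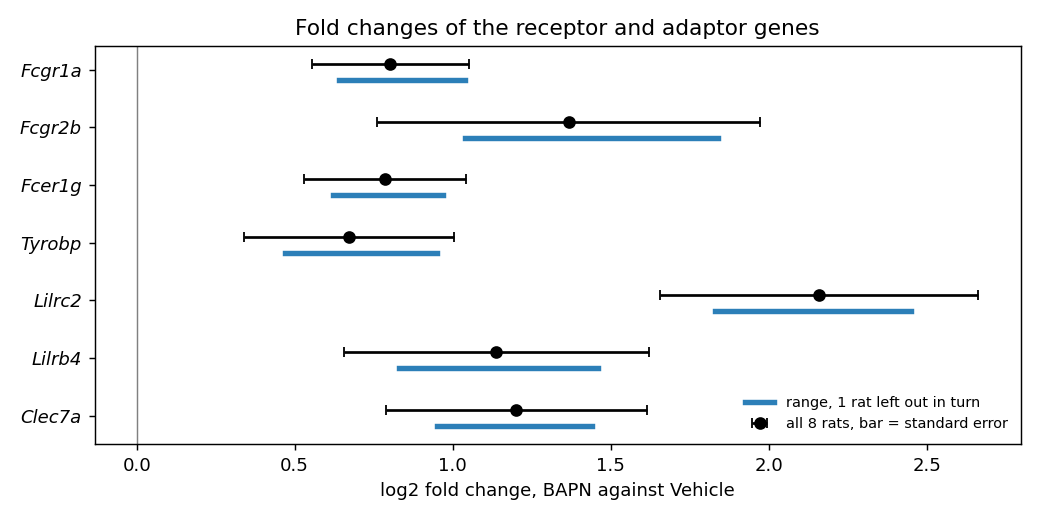
Log2 fold change of BAPN against vehicle for the 7 genes over all 8 rats (point, with its standard error) and the range when each rat was left out in turn (blue line). All ranges lie above 0, from 0.47 to 0.95 for Tyrobp at the low end to 1.83 to 2.45 for Lilrc2.

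The order of the vehicle rats was alike at its ends in 6 of the 7 genes, a pattern that does not rest on the difference between the groups. In Fcgr1a, Fcgr2b, Fcer1g, Tyrobp, Lilrb4 and Clec7a the highest vehicle rat was Vehicle 2 and the lowest was Vehicle 4. The same rats stood at the ends of the summed pan-leukocyte markers (3500 and 1160 CPM) and macrophage markers (23700 and 6670 CPM), so this order is not particular to the family. Without the lysozyme gene Lyz2, the macrophage sum was highest in Vehicle 2 (4220 CPM) and lowest in Vehicle 3 (2780 CPM), with Vehicle 4 at 2810 CPM. Lilrc2 had the reverse order at both ends, with Vehicle 4 the highest and Vehicle 2 the lowest. Among BAPN rats, BAPN 4 was the highest for Fcgr1a, Fcer1g, Tyrobp, Lilrb4 and Clec7a and the lowest for Lilrc2. BAPN 2 was the lowest for Fcgr1a, Fcgr2b, Tyrobp and Clec7a. The summed pan-leukocyte markers were also highest in BAPN 4 and lowest in BAPN 2 (4760 and 2900 CPM). The macrophage sum was instead highest in BAPN 3 and lowest in BAPN 1 (42400 and 29200 CPM). The order was less common to the genes than among vehicle rats. BAPN 1 was the highest for both Lilrc2 and Fcgr2b and the lowest for Lilrb4 and Fcer1g, and BAPN 4 lay below the group mean for Fcgr2b. Lilrc2 in Vehicle 4 lay 0.72 above the mean of its group on the log2 scale, and Fcgr2b in the same rat lay 1.69 below it.

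**Figure D3:**
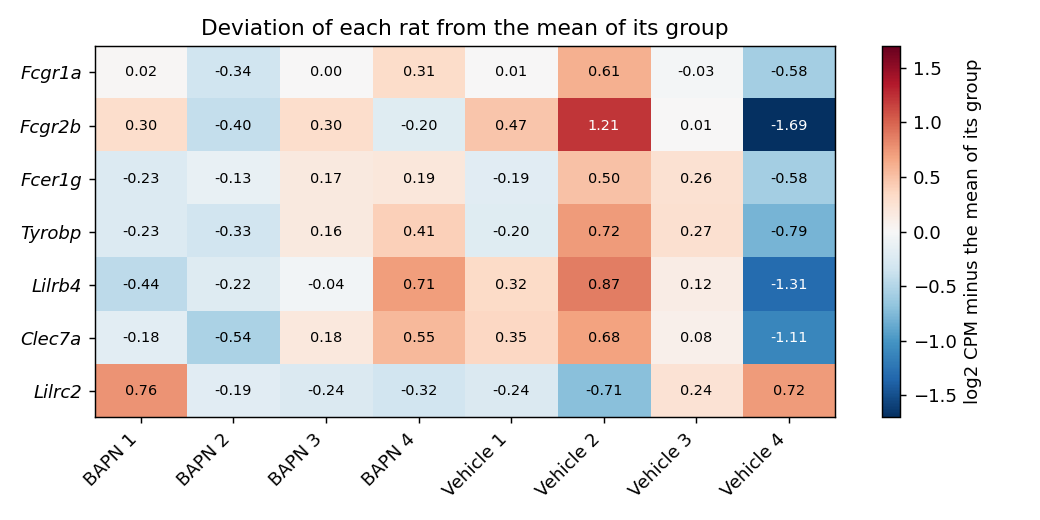
Log2 CPM of each gene in each rat minus the mean of that rat's group (red, above; blue, below). In Vehicle 2 and Vehicle 4 the 6 upper genes deviate together, to 1.21 and -1.69 for Fcgr2b, and Lilrc2 in the bottom row deviates the other way.

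Likeness was measured as Pearson's r between these deviations over the 8 libraries, and the 11681 other tested genes were ranked by it. It is a description, since so few libraries give high values to many genes and all genes share the same libraries and scaling. Tyrobp stood at rank 11 for Fcer1g (r = 0.98) and Fcer1g at rank 18 for Tyrobp. The genes closest to Fcer1g were Sap30, Bloc1s2, Smagp, Nrros and Cib1, with r from 0.985 to 0.991. Those closest to Tyrobp were Bloc1s2, Ccdc115, Rnaseh2a, Dapk3 and Sash3, with r from 0.990 to 0.994. For Lilrc2 they were Cyb561, Slc39a7, Apc2, Egflam and Igf2 (r from 0.963 to 0.984), all with a negative log2 fold change with BAPN (-0.18 to -1.86). The other 6 genes of the family had r between -0.84 (Lilrb4) and -0.62 (Fcgr2b) with Lilrc2.

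The balance between the genes was measured as the log2 ratio of CPM within each library, from which gene length cancels when libraries are compared. Fcer1g to Tyrobp was steady, at 1.02 ± 0.17 with BAPN and 0.93 ± 0.17 with vehicle (SD, n = 4 per group). Fcgr1a to Fcer1g was at -2.19 ± 0.22 and -2.20 ± 0.21. The ratio of the activating Fcgr1a to the inhibitory Fcgr2b was lower with BAPN, at -1.18 ± 0.38 against -0.37 ± 0.78, but it ran from -1.48 to -0.67 with BAPN and from -0.97 to 0.74 with vehicle, the top value being Vehicle 4. Clec7a to Fcer1g was at -1.02 ± 0.32 and -1.47 ± 0.46, and Lilrc2 to Lilrb4 at -6.44 ± 0.93 and -7.38 ± 1.55. The groups overlapped for all 5 ratios.

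Most markers of leukocytes also had a higher mean with BAPN, and the number called depended on the tool. The shares of all tested genes called higher were 7.50% in edgeR and 12.3% in DESeq2. All 5 pan-leukocyte markers (Ptprc, Laptm5, Coro1a, Cd53 and Itgb2) had a higher mean with BAPN (median log2 fold change 0.60), and Cd53 was the 1 called by either tool (1.06 ± 0.33 SE, FDR 0.0376 in edgeR). Their summed level was 2900 to 4760 CPM in BAPN libraries and 1160 to 3500 CPM in vehicle libraries, and Vehicle 4 was the lowest of all. Of 14 macrophage markers, 13 were tested, 12 had a positive and Cd163 a negative log2 fold change (-0.25), and edgeR called only Aif1 (a log2 difference of 0.80 ± 0.16 SE, FDR 0.0155 in edgeR). DESeq2 called Aif1, Lyz2, Cd14 and Mertk, all higher, and Marco had no reads. The macrophage sum was 29200 to 42400 CPM with BAPN and 6670 to 23700 CPM with vehicle, without overlap. The lysozyme gene Lyz2 made up 57.9% to 89.7% of it, and did not overlap between the groups (log2 fold change 1.28, FDR 0.0722 in edgeR, adjusted p 0.00765 in DESeq2). Without it the sum was 4010 to 5080 CPM with BAPN and 2780 to 4220 CPM with vehicle.

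Set against the summed pan-leukocyte markers of the same library, the difference was smaller for all 7 genes, since the same sum divides each of them. The log2 ratio to the marker sum differed between the group means by 0.00 for Tyrobp, 0.09 for Fcer1g and 0.10 for Fcgr1a. It differed by 0.51 for Lilrb4, 0.54 for Clec7a, 0.92 for Fcgr2b and 1.45 for Lilrc2. Only Clec7a did not overlap between the groups on this scale. Against the macrophage markers without Lyz2, chosen after the share of Lyz2 was seen, the differences were 0.31 for Tyrobp, 0.40 for Fcer1g, 0.42 for Fcgr1a, 0.83 for Lilrb4, 0.85 for Clec7a, 1.23 for Fcgr2b and 1.77 for Lilrc2, and Fcgr2b, Lilrc2 and Clec7a did not overlap. With Lyz2 kept in the sum, the ratios of Tyrobp, Fcer1g and Fcgr1a were lower with BAPN (-0.53, -0.44 and -0.42), that of Fcer1g without overlap (-5.60 to -5.46 against -5.41 to -4.51). Those of Lilrb4 and Clec7a differed by -0.01 and 0.01, and those of Fcgr2b and Lilrc2 were higher by 0.39 and 0.93. These scales were chosen after the data were seen and have no test.

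**Figure D4:**
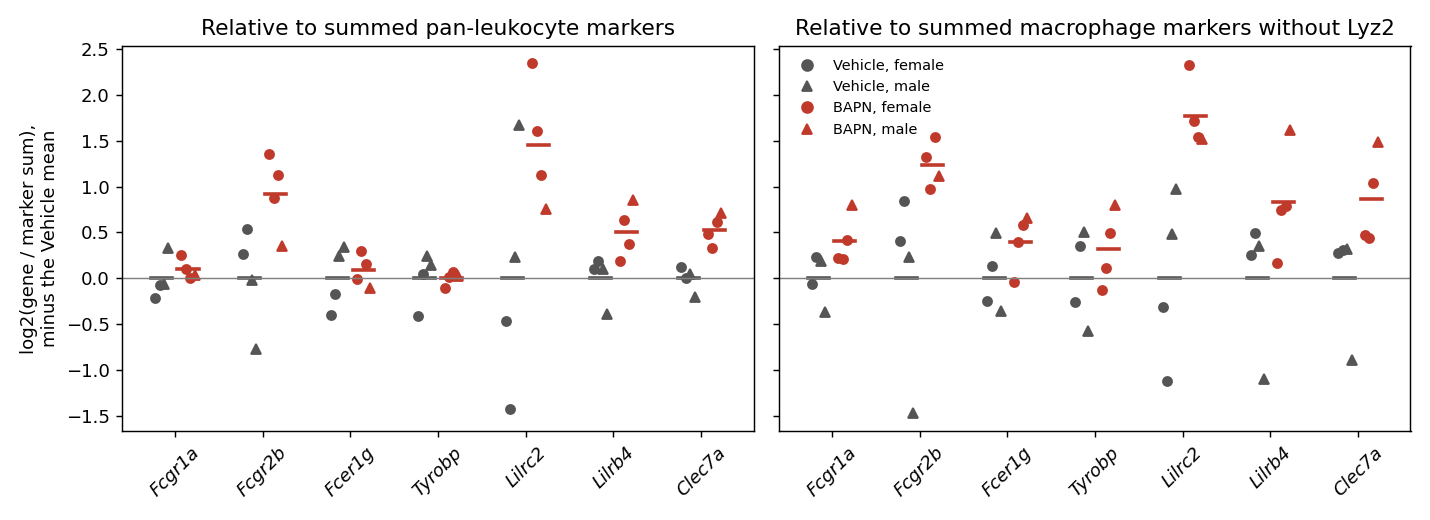
Log2 ratio of each gene to the summed CPM of 5 pan-leukocyte markers (left) and of the macrophage markers without Lyz2 (right) in each rat, shown minus the vehicle mean (horizontal lines, group means). On the left Tyrobp, Fcer1g and Fcgr1a stay within 0.10 of the vehicle mean on average, while Fcgr2b and Lilrc2 lie 0.92 and 1.45 above it.

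Markers of other cell types moved in different ways. Beside the counts below, edgeR called 7.50% of all tested genes higher and 9.25% lower, and DESeq2 12.3% and 15.1%. B cells also express Fcgr2b. Of 7 B cell and plasma cell markers only Cd79b, Mzb1 and Jchain reached the minimum base mean, the first 2 only through their reads in BAPN 1 to 3, so no count of calls is given for them. Mzb1 was at 15.1, 27.8, 41.5 and 0.167 CPM in BAPN 1 to 4 and at 0.187 to 1.77 CPM with vehicle. BAPN 4, low for Mzb1, also lay within the vehicle range for Cd79b and below it for Jchain. The sum of the whole list ran from 7.12 to 222 CPM with BAPN and from 12.2 to 38.3 CPM with vehicle. Neutrophil markers were sparse, with 2 of 9 tested and sums of 30.9 to 68.6 and 20.3 to 54.4 CPM, and neither edgeR (0 at an unadjusted p under 0.05) nor DESeq2 called any. Mast cell markers summed to 29.6 to 56.2 CPM with BAPN and 38.7 to 64.9 CPM with vehicle, and edgeR called none of the 3 tested (1 at an unadjusted p under 0.05), while DESeq2 called Cma1 lower (adjusted p 0.0123). Dendritic cell markers summed to 286 to 451 and 106 to 399 CPM, and of 6 tested Zbtb46 was called lower. Most of this sum was Itgax alone, at 242 to 426 and 69.1 to 364 CPM. T cell and NK cell markers summed to 67.6 to 121 and 23.1 to 65.5 CPM, with Cd2 and Cd8a called higher among 9 tested. Smooth muscle markers, all 6 with a lower mean and 3 called, summed to 1400 to 3930 and 2880 to 5520 CPM, and endothelial markers, with 2 of 5 called lower, to 435 to 557 and 687 to 1430 CPM. Fibroblast markers summed to 23000 to 36100 and 28100 to 93800 CPM, and edgeR called none of the 6 (3 at an unadjusted p under 0.05), while DESeq2 called 3 lower (Pdgfra, Col1a1 and Col3a1, with adjusted p from 0.0253 to 0.0278). Most of the fibroblast sum was Col1a1 (10300 to 15800 and 11800 to 48900 CPM) and Col3a1 (9920 to 16500 and 13400 to 39500 CPM). The part that these cell types play in the levels of the 7 genes was not tested.

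The sexes were compared in edgeR with treatment in the model, a term that did not enter the choice of the genes. None of the 7 was called for sex, and none had an unadjusted p under 0.05. DESeq2 called none either, and over all tested genes edgeR called 1 (0.00856%). The log2 difference of males minus females ran from -0.95 (Fcgr2b) to 0.32 (Lilrc2). With 1 BAPN male and 2 vehicle males this comparison is imprecise, and it cannot show that the sexes are alike. The interaction of treatment with sex was not called for any of the 7 by edgeR, though 3 of them (Fcgr1a, Lilrb4 and Clec7a) had an unadjusted p under 0.05, as did 12.3% of all tested genes. It rests on a single BAPN male, and edgeR called none of the tested genes for it (0.00%). In the 5 females, the log2 fold change was smaller than in all 8 rats for 6 genes, at 0.30 for Tyrobp, 0.41 for Lilrb4, 0.41 for Fcgr1a, 0.58 for Fcer1g, 0.61 for Clec7a and 0.88 for Fcgr2b. For Lilrc2 it was larger, at 2.85.

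Related genes that were not among the 7 were tested in the same fit. Of 138 such genes, 108 were tested and 17 called, or 15.7%, against 16.8% of all tested genes. The called genes were 14 higher and 3 lower with BAPN, and the median log2 fold change was 0.43. By direction, 13.0% were called higher, against 7.50% of all tested genes, and 2.78% lower, against 9.25%. A positive log2 fold change was found in 85 of the 108, against 51.6% of all tested genes. DESeq2 called 29 of them, 21 higher and 8 lower, where it called 27.4% of all tested genes. The lists were chosen with earlier results known, and nothing particular to them is read from these shares. Only Clec4a2 and Bcl10 were called whichever single rat was left out, and 7 of the 17 kept the call in at most 2 of those 8 fits. With Vehicle 1 left out the number called was 2. In the lists below, genes counted as having risen or fallen are those edgeR called, beside 7.50% and 9.25% of all tested genes.

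**Figure D5:**
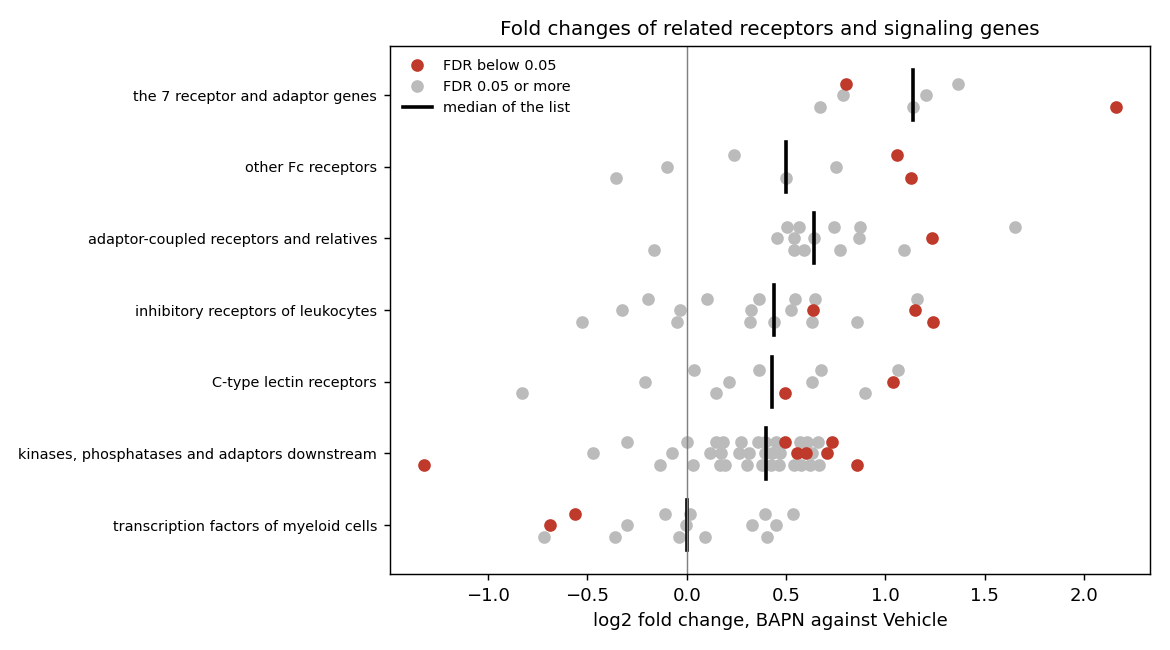
Log2 fold change of each tested gene in the family and in 6 lists of related genes (red, FDR below 0.05 in edgeR; grey, not called; black line, median of the list). The medians of the receptor lists lie between 0.43 and 0.64 and that of the downstream signaling genes at 0.40, while that of the transcription factors is at 0.00.

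Other Fc receptors. Of 15 genes 7 were tested and 2 rose. Fcgr2a, another low-affinity receptor for IgG, rose from 72.3 ± 26.6 to 158 ± 30.8 CPM (SD, n = 4 per group; log2 fold change 1.13 ± 0.30 SE, FDR 0.0276 in edgeR), without overlap. Fcgr3a, which pairs with Fcer1g, rose from 37.3 ± 11.8 to 77.5 ± 23.7 CPM (1.06 ± 0.30 SE, FDR 0.0362 in edgeR), with BAPN 3 at 44.1 CPM inside the vehicle range. Fcgr2a lost its call without BAPN 3, BAPN 4, Vehicle 1 or Vehicle 3, and Fcgr3a without BAPN 1, BAPN 2, BAPN 4, Vehicle 1 or Vehicle 3. With sex as a covariate neither was called. Fcgrt, the neonatal Fc receptor that recycles IgG, was at 220 ± 66.2 and 235 ± 39.5 CPM and was not called (log2 fold change -0.10).

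Receptors that couple to ITAM-type adaptors, with their relatives and the adaptor Hcst, numbered 22, of which 15 were tested. Of these, 14 had a positive log2 fold change and 1 was called. Trem1, an amplifier of inflammation that signals through Tyrobp, rose from 13.0 ± 6.19 to 30.7 ± 5.13 CPM (a log2 difference of 1.23 ± 0.28 SE, FDR 0.0276 in edgeR), without overlap. Trem1 kept its call in 3 of 8 fits that left out a rat and lost it when sex was a covariate. Trem2, another receptor that uses Tyrobp, was at 249 ± 132 and 160 ± 79.9 CPM (0.64, FDR 0.331 in edgeR) and Cd300lb at 134 ± 30.8 and 90.6 ± 42.7 CPM (0.56, FDR 0.288 in edgeR).

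Inhibitory receptors. Of 25 genes 19 were tested and 3 rose, all from the C-type lectin family. Clec4a2 rose from 8.17 ± 1.82 to 19.3 ± 4.09 CPM (a log2 difference of 1.24 ± 0.25 SE, FDR 0.0119 in edgeR), and was at 15.4 to 24.3 CPM with BAPN against 5.95 to 10.4 CPM with vehicle. Clec12a rose from 27.6 ± 11.6 to 61.3 ± 3.15 CPM (1.15 ± 0.28 SE, FDR 0.0298 in edgeR) and Clec4a3 from 117 ± 23.9 to 182 ± 25.4 CPM (0.64 ± 0.17 SE, FDR 0.0343 in edgeR). None of these 3 overlapped between the groups, but Clec12a and Clec4a3 each kept the call in only 2 of 8 fits that left out a rat. Neither was called with sex in the model, nor Clec4a3 with total counts alone. Sirpa, the receptor for the signal CD47, was at 435 ± 100 and 450 ± 141 CPM (-0.05, FDR 0.902 in edgeR). DESeq2 called 5 of the 19, adding Pirb (log2 fold change 1.16, adjusted p 0.036) and Ceacam1 (-0.528, adjusted p 0.0263) to the 3 above. Lilrb2 (0.545), Lilrb3 (-0.193) and Lilrb3a (0.324) were called by neither tool.

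C-type lectin receptors other than Clec7a. Of 20 genes 12 were tested and 2 rose, while DESeq2 called 6 of the 12. Clec4d, which pairs with Fcer1g, rose from 60.0 ± 19.4 to 123 ± 20.2 CPM (a log2 difference of 1.04 ± 0.26 SE, FDR 0.0252 in edgeR) and Cd302 from 75.8 ± 3.38 to 107 ± 15.3 CPM (0.49 ± 0.12 SE, FDR 0.0254 in edgeR). Both separated the groups without overlap and kept the call in 3 of 8 fits that left out a rat. Cd302, unlike Clec4d, also lost it with total counts alone and with sex in the model. The mannose receptor Mrc1 was at 251 ± 88.6 and 217 ± 50.6 CPM and the scavenger receptor Colec12 at 219 ± 47.3 and 214 ± 38.4 CPM, and neither was called.

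Kinases, phosphatases and adaptors downstream. Of 41 genes 40 were tested, 6 rose and 1 fell. Ptpn6, the phosphatase SHP-1 that ITIMs recruit, rose from 109 ± 21.1 to 182 ± 17.8 CPM (a log2 difference of 0.73 ± 0.15 SE, FDR 0.0170 in edgeR), and lost its call only without Vehicle 1 among the 8 fits. The ubiquitin ligases of this pathway parted, since Cblb rose from 70.8 ± 14.0 to 128 ± 26.7 CPM (0.86 ± 0.19 SE, FDR 0.0206 in edgeR) and Cbl fell from 30.0 ± 6.88 to 12.0 ± 4.82 CPM (-1.32 ± 0.31 SE, FDR 0.0248 in edgeR), both without overlap. Cblb kept its call in 6 and Cbl in 5 of the 8 fits. Bcl10, which acts with Card9 after Clec7a, rose from 36.9 ± 4.62 to 60.4 ± 7.41 CPM (0.71 ± 0.13 SE, FDR 0.0137 in edgeR). Vav1 (0.55, FDR 0.0409), Lcp2 (0.49, FDR 0.0459) and the kinase Lyn (0.60, FDR 0.0436) also passed in edgeR, but kept the call in only 2, 1 and 1 of the 8 fits, and none of the 3 with total counts alone or with sex as a covariate. Arhgdib was at 311 ± 52.3 and 239 ± 48.3 CPM and was not called. Syk itself, named after its values were seen, was at 235 ± 59.9 and 209 ± 85.4 CPM (0.17, FDR 0.715 in edgeR).

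Transcription factors of myeloid cells. All 15 were tested and 2 fell. Cebpb fell from 64.1 ± 11.3 to 43.4 ± 5.30 CPM (a log2 difference of -0.56 ± 0.15 SE, FDR 0.0347 in edgeR), with overlap. Maf fell from a mean of 74.3 to 46.0 CPM (-0.69 ± 0.21 SE, with an edgeR FDR just under 0.05), without overlap. Each kept the call in only 2 of 8 fits that left out a rat, and neither was called without a filter on low counts or with sex as a covariate. Stat3 was at 250 ± 39.5 and 235 ± 34.0 CPM and Stat6 at 222 ± 21.5 and 220 ± 15.1 CPM, and neither was called. Spi1, the factor PU.1, named after its values were seen, was at 233 ± 44.3 and 171 ± 69.7 CPM (0.45, FDR 0.275 in edgeR), with Vehicle 2 again the highest and Vehicle 4 the lowest of the vehicle rats.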

How the data were processed

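Strand-specific libraries were prepared from the RNA of each vein once ribosomal RNA had been removed. The submitters' notes name bcl2fastq 2.17, Trim Galore and STAR. The counting tool, strand setting and genome build are not given in the sources used here, so no coordinates are given for the counts. The authors deposited raw read counts per Ensembl rat gene for each rat, without normalization.

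A gene was tested where its base mean reached 100 (DESeq2 1.42.0 size factors), the minimum of the study, with edgeR 4.0.16 (TMM, quasi-likelihood F test, treatment only) in R 4.3.3, and standard errors came from limma 3.58.1 (voom). DESeq2, the closest to the tool of the study, was an alternative. FDR values are Benjamini-Hochberg adjusted over 11682 genes, which held 99.5% to 99.66% of the counts. Log2 CPM of single genes used a prior count of 2, and the log2 ratios used none. Each library is a separate rat and was counted as a replicate, and no pair within a group agreed within counting noise (chi-square per degree of freedom 68.6 to 321). In simulated counts for 11682 genes, edgeR recovered 166 of 200 genes changed by 1.5 (log2), with 9 false calls, and DESeq2 186, with 51.

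The genes, the related lists and the marker lists were chosen with earlier results of these data known. All 7 genes are named. In each related list every called gene is named, or, above 6 called, the 3 highest and 3 lowest, with the 2 tested genes of highest mean CPM, and for Lilrc2, Fcer1g and Tyrobp the 5 genes most like them. Spi1, Syk, Pirb, Ceacam1, Lilrb2, Lilrb3 and Lilrb3a were named after their values were seen. Alternatives were other scalings, filters, sex, the replicate number as a block, females alone, BAPN counts thinned to the vehicle depth, and each rat left out. Ratios to marker sums were added after seeing the data.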

Additional observations from a re-analysis of the deposited data

Results flagged for a closer look

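Lilrc2 in BAPN 1 was at 9.06 CPM, apart from the 4.26 to 4.67 CPM of the other BAPN rats. The gap was 0.915 of the range of its group. It was the only such value among the 14 groups of 4 libraries examined for the 7 genes, and chance alone marks about 1 in 20 groups. Without BAPN 1 the log2 fold change of Lilrc2 was 1.83, against 2.16 with it.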

How the results depend on the processing

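All 7 log2 fold changes stayed above 0 under all 17 alternatives, and only that of Lilrc2 among females alone (2.85) moved by more than the spread between replicates. Among females alone the values of Tyrobp (0.30), Lilrb4 (0.41), Fcgr1a (0.41), Clec7a (0.61) and Fcgr2b (0.88) were lower by over 1.5 times. Calls moved more. With DESeq2, 3202 genes, 6 of the 7 genes and 29 related genes were called. With sex as a covariate the numbers were 930, 1 and 6, and among females alone 89, 0 and 0 (3 of the 7 and 24 related genes at an unadjusted p under 0.05 in edgeR). Scaling by total counts alone called 1665 genes and 1 of the 7, and 30.3% of all calls were then higher with BAPN against 44.8%. The filterByExpr filter also called 1 of the 7, and 1876 of 14732 genes. Leaving out each rat gave 397 (Vehicle 1) to 2215 (Vehicle 2) genes, 0 to 7 of the 7 and 2 to 24 related genes. Leaving out any rat other than BAPN 1 and Vehicle 2 lowered the number of genes called by more than 1.5 times. Without Vehicle 2 all 7 were called, without Vehicle 1 none (6 at an unadjusted p under 0.05 in edgeR), and without any other rat only Lilrc2. The contrast picked these genes, and Lilrc2 reached the minimum base mean only through its BAPN reads, so nothing is read from these calls. The deviations of same-numbered rats had r from -0.26 to 0.27. These values cannot show whether such rats shared a surgery day or batch, which the labels do not give. With the replicate number as a block 556 genes, 0 of the 7 (5 at an unadjusted p under 0.05 in edgeR) and 4 related genes were called. The cause of these changes was not tested. The 14 to 41 vehicle reads limit the precision of Lilrc2.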
